A study of Mus musculus with 6 samples.

Results

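Cohesin and its meiotic form were followed in mouse lung tumors through 10 genes: the meiotic subunits Rec8, Smc1b and Stag3, the subunits Smc1a, Smc3, Rad21, Stag1 and Stag2 of dividing somatic cells, the loader Nipbl and the release factor Wapal. The set was chosen on a measured value, since Rec8 had the highest ratio among the genes named earlier in these data, and the other 9 genes were added as its partners whatever their own values. Rec8 values are therefore a description with no test, while the partners were tested in a fit of all genes. All 10 gene names were on the array, under 23 probes (Wapal as Wapl), out of 36870 gene names. Of these, 8 members passed the filter on dim probes and were among the 20475 genes tested, and Smc1b and Stag3 did not pass it.

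All mice had the genotype Ror1f/f; CAG-CreER; SPC-hEGFRdel746-750 on the C57BL/6J background, so both groups carried the floxed Ror1 gene, the inducible Cre and the human EGFR transgene. The CAG promoter is active in most cell types, whereas the surfactant protein C promoter limits the transgene to lung epithelium. One group received tamoxifen and the other corn oil, for 4 weeks beginning at an age of 16 weeks, and lung tumors were collected at 20 weeks. There were 3 samples a group, and no group received tamoxifen without CreER, so an effect of the drug and an effect of the deletion cannot be told apart. Tamoxifen sample 1 shared its arrays with oil sample 1, and likewise for 2 and 3. Each such couple was hybridised on 2 arrays with the dyes exchanged, which gave 6 arrays. The labels do not say whether numbered samples are separate animals, so p-values measure only the spread between these samples.

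Cohesin is a ring of the SMC proteins Smc1a and Smc3, closed by the kleisin Rad21, with a Stag protein bound to the kleisin. It holds sister chromatids together from replication to anaphase and extrudes chromatin loops, also in cells that do not divide. In germ cells Rec8 takes the place of Rad21, Smc1b that of Smc1a and Stag3 that of Stag1 or Stag2, and these forms build the chromosome axis of meiosis. Lung epithelium is not known for meiotic cohesin, although Rec8 transcripts also occur in some somatic tissues and tumors.

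The share of probes well above background, by the scanner software's own flag, ran from 51.8% to 58.8% over arrays and channels, and the lung lineage markers Sftpc, Sftpb and Nkx2-1 were so in all 12 readings (3 samples in each of 2 groups, each read on 2 arrays). The brighter Ror1 probe did not go down with the tamoxifen label: its couples were at 0.58, 0.44 and 0.18 on the log2 scale, with a mean of 0.40 ± 0.21 (SD over 3 couples; limma, adjusted p = 0.69). The dimmer Ror1 probe was never well above background, and the labels do not give the floxed exon, so these probes check neither the deletion nor the labels. Groups are therefore named by their labels. Sex-linked transcripts differed within couple 1: Xist was at 6.62 in tamoxifen sample 1 and 8.74 in oil sample 1 (normalized log2 signal), and Eif2s3y of the Y chromosome at 9.73 and 6.01. In couples 2 and 3 these transcripts were on the same side in both samples. In RNA of whole tumors, more cells of a type and more RNA per cell cannot be told apart.

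Rec8, the meiotic kleisin, gave a higher signal in every sample labelled tamoxifen than in every sample labelled oil. Its brighter probe, on chromosome 14 from 56244160 to 56244219 (mm9, accession NM_020002, starting at base 1982 of the transcript), was well above background in all 12 readings. The normalized log2 signal was 12.80, 12.12 and 11.67 in tamoxifen samples 1, 2 and 3, and 11.60, 10.93 and 9.997 in oil samples 1, 2 and 3. Couple 1 was the highest and couple 3 the lowest in both groups, and the lowest tamoxifen sample lay only 0.07 above the highest oil sample. From lowest to highest the tamoxifen samples spanned 1.13 and the oil samples 1.604, beside a difference of 1.35 between the group means.

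Within couples the Rec8 difference was steadier. Where Cy5 carried tamoxifen, the log2 ratio of tamoxifen over oil was 1.11 in couple 1, 1.10 in couple 2 and 1.604 in couple 3. Where Cy3 carried it, the ratio was 1.28, 1.28 and 1.74. Averaged over both dyes the couples stood at 1.20, 1.19 and 1.67, and their mean was 1.35 ± 0.28 (SD, n = 3 couples), or 2.55-fold. All 6 arrays were above a log2 ratio of 1. The orientation of the dyes moved the value by less than couple 3 stood apart from the others. It moved the value by more than couples 1 and 2 differed. These are the values that chose the set, so no p is given and nothing is read from the share of all genes, 6.05%, that were above 0 on all 6 arrays. Among the 10 genes by which the higher side was named earlier, the next mean was that of Prxl2a, at 0.87 ± 0.06 (SD, n = 3 couples). By its mean alone Rec8 was not at the top of the array: 13 tested genes had a higher mean, 10 of them above 0 on all 6 arrays.

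A further Rec8 probe lies toward the other end of the transcript, at base 77 (chromosome 14 from 56237080 to 56237139, mm9). It was well above background in 1 of 6 tamoxifen readings and 0 of 6 oil readings, so it carries no usable level. Its ratios were small, 0.17, 0.14 and 0.12 in couples 1, 2 and 3, yet above 0 on all 6 arrays. The Rec8 values therefore rest on the probe near the end of the transcript.

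**Figure D1:**
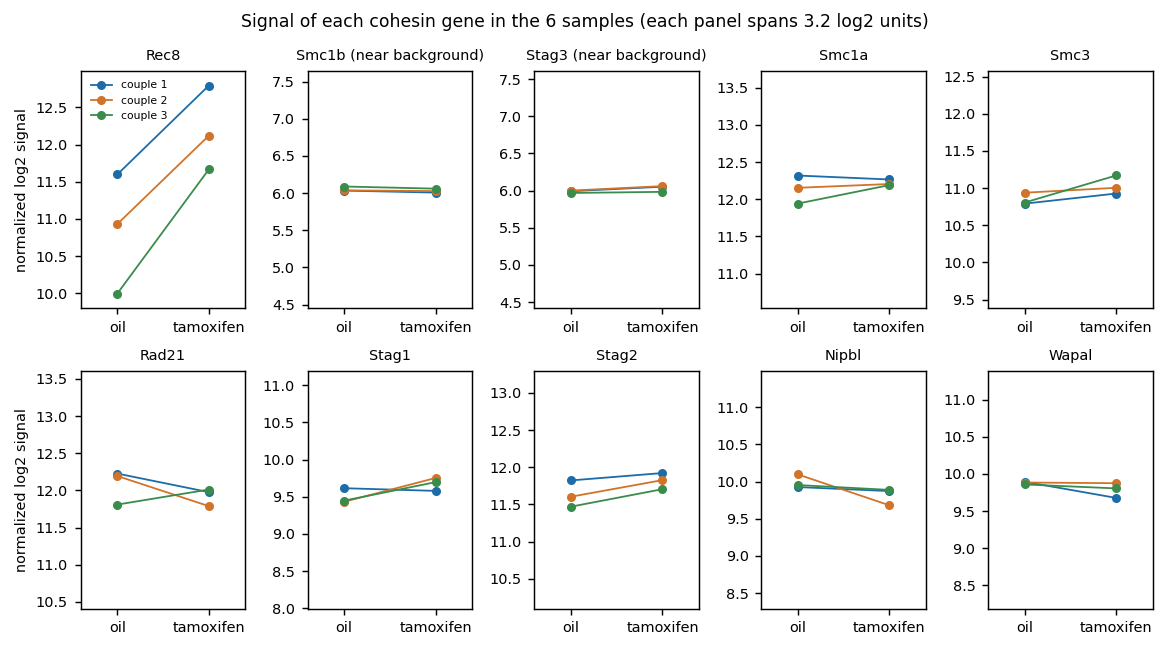
Normalized log2 signal (vertical axis) of the probe that stands for each cohesin gene in the oil and tamoxifen samples, with a line for each couple of samples that shared arrays. Every panel spans the same log2 range, and levels are not comparable between panels; the 3 lines of Rec8 rise by 1.20, 1.19 and 1.67 from different starting levels, while Smc1b and Stag3 stay near background.

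The meiotic partners of Rec8 were not detected. Smc1b, the SMC subunit that pairs with Smc3 in meiosis, has a pair of probes on the array, and each was well above background in 0 of 12 readings. Its couple ratios ran from -0.03 to -0.01 on the brighter probe and from -0.13 to 0.13 on the dimmer. Stag3, the meiotic Stag protein, was likewise well above background in 0 of 12 readings of each of its probes, with couple ratios from 0.02 to 0.06 and from 0.04 to 0.12. No fold is given for either gene, because both groups are at background. Rad21l, a further meiotic kleisin, was in 0 of 12 readings too. An array signal at background does not show that a transcript is absent.

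Many genes of meiotic prophase were in the same state, though not all. Of 26 such genes on the array, which build the synaptonemal complex or make and repair meiotic breaks, 13 were in no reading well above background, among them Sycp1, Syce1, Hormad1 and Spo11. The filter was passed by 6, Prdm9 and Msh5 included, which were well above background in all 12 readings. Those 6 had a median log2 ratio of 0.05, with 4 above 0 and 2 below, and 0 passed limma. Their highest mean was that of Mnd1, a partner of the strand exchange proteins, at 0.27 ± 0.37 (SD, n = 3 couples). The lowest was that of Syce2, a central element protein, at -0.01 ± 0.32. Of 12 germ cell markers, 9 were in no reading well above background, the defining genes Ddx4 and Dazl included, and the summed log2 signal of the 12 was 9.74 to 9.78 in tamoxifen and 9.76 to 9.77 in oil samples. The 1 germ cell marker that passed the filter was the protamine gene Prm2, at -0.02 ± 0.15. Thus Rec8 was the only gene with a level in all 12 readings among the 3 meiotic subunits on the list.

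The start regions of these 3 genes are shown because Smc1b and Stag3 are known to be held silent in somatic cells by the repressor E2F6, and Rec8 had a level where they had none. The bases are the 250 before the start site, from RefSeq on GRCm38.p6, on chromosome 14 from 55617916 to 55618165 (plus strand) for Rec8, chromosome 15 from 85131958 to 85132207 (minus strand) for Smc1b and chromosome 5 from 138280259 to 138280508 (plus strand) for Stag3. Capitals mark TCCCGC, the E2F6-type motif, and CACGTG, an E-box, on either strand.
Rec8: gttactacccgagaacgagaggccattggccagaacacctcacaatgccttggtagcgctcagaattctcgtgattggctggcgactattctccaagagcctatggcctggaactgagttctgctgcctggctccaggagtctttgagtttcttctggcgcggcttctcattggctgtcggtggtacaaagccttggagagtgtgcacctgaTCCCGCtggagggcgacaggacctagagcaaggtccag
Smc1b: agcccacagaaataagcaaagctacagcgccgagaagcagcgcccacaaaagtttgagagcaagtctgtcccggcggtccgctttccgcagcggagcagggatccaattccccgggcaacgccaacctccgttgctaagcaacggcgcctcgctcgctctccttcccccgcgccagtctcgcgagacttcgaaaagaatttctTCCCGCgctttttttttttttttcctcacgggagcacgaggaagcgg
Stag3: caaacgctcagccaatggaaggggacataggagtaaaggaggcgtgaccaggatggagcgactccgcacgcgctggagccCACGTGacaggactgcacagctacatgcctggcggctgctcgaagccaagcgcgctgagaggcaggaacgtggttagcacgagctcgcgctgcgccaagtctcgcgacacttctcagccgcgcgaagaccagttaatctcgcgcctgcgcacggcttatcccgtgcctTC
The table's windows run 50 bases past the start site, and in these 300 bases each of the 3 genes held 1 TCCCGC. It begins 38 bases before the start in Rec8, 47 before in Smc1b and 2 before in Stag3, where it runs past the printed stretch. This motif was in 20.0% of 32851 windows of the same length. It was also in 6 of the 7 members found in the table, Stag1, Smc3 and Smc1a included. Rad21, Stag2 and Nipbl had no window there, and a role of the motif was not tested. CACGTG was in 7.15% of windows and, among the 7, in Stag3 only, 170 bases before its start. The motifs do not overlap in these windows. No binding or methylation was measured, and a match is a description of the letters.

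The subunits of mitotic cohesin had mean log2 ratios between -0.15 and 0.19. None of Smc1a, Smc3, Rad21, Stag1 and Stag2 passed limma, with adjusted p from 0.69 to 0.85, where 0 of 20475 genes (0%) passed. With Nipbl and Wapal, 0 of the 7 tested members other than Rec8 had an unadjusted p under 0.05, against 3% of all genes on the higher and 4.01% on the lower side. The median ratio of the 7 was 0.08, against 0.00 for all genes (-0.004 before rounding).

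Smc3, the SMC subunit that the mitotic and meiotic rings share, had a normalized log2 signal of 10.93, 11.004 and 11.17 in tamoxifen samples 1, 2 and 3, and 10.79, 10.94 and 10.81 in oil samples. The groups overlapped at their edge, and the couple ratios were all above 0, at 0.14, 0.07 and 0.36. They averaged 0.19 ± 0.16 (SD, n = 3 couples), with a 95% interval of -0.06 to 0.44 in limma. A further Smc3 probe gave 0.21 ± 0.12 with groups that did not overlap. Smc1a, its X-linked partner, was at 12.27, 12.21 and 12.19 in tamoxifen and 12.32, 12.15 and 11.94 in oil samples. The tamoxifen samples lay inside the oil range, and the couple ratios of -0.05, 0.05 and 0.25 averaged 0.08 ± 0.15 (interval -0.17 to 0.33). The mean was -0.001 without couple 3.

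Rad21, the kleisin whose place Rec8 takes in meiosis, did not mirror Rec8 in every couple. Its signal was 11.98, 11.79 and 12.01 in tamoxifen and 12.23, 12.19 and 11.81 in oil samples. Couples 1 and 2 were below 0, at -0.25 and -0.41, and couple 3 was above, at 0.20, on both of its arrays. The mean of -0.15 ± 0.32 (SD, n = 3 couples) had a limma interval of -0.52 to 0.22, so a moderate difference either way is not shown or excluded by 3 couples. The correlation of Rad21 with Rec8 over the 6 samples was 0.04.

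Of the Stag proteins, Stag2, which is X-linked and often mutated in human tumors, was at 11.92, 11.83 and 11.71 in tamoxifen and 11.82, 11.60 and 11.47 in oil samples. Each tamoxifen sample was above the oil sample of its couple, by 0.10, 0.22 and 0.24, though the groups overlapped. The mean of 0.19 ± 0.08 (SD, n = 3 couples) had the smallest adjusted p of the partners, 0.69 in limma, with an interval of -0.03 to 0.40. The other Stag2 probe, on a shorter transcript model, depended on the dye: all 3 arrays with tamoxifen in Cy5 were above 0 (0.26 to 0.49) and all 3 with tamoxifen in Cy3 below 0 (-0.44 to -0.23), which averaged 0.03 ± 0.10. Stag1, its paralog, was at 9.58, 9.75 and 9.70 in tamoxifen and 9.62, 9.43 and 9.45 in oil samples, with couple ratios of -0.04, 0.32 and 0.25 and a mean of 0.18 ± 0.19 (interval -0.09 to 0.45). The next Stag1 probe gave 0.23 ± 0.16 with groups that did not overlap. One nearer the transcript's beginning gave 0.10 ± 0.02, and the dimmest, in 3 of 12 readings, 0.01 ± 0.08. The X-linked Smc1a and Stag2 had their lowest ratio in couple 1, the couple in which Xist and the Y-linked transcripts differed. So did Stag1, on chromosome 9, and Wapal, on chromosome 14, which are not X-linked. The part of the sex-linked difference in these values was not tested.

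**Figure D2:**
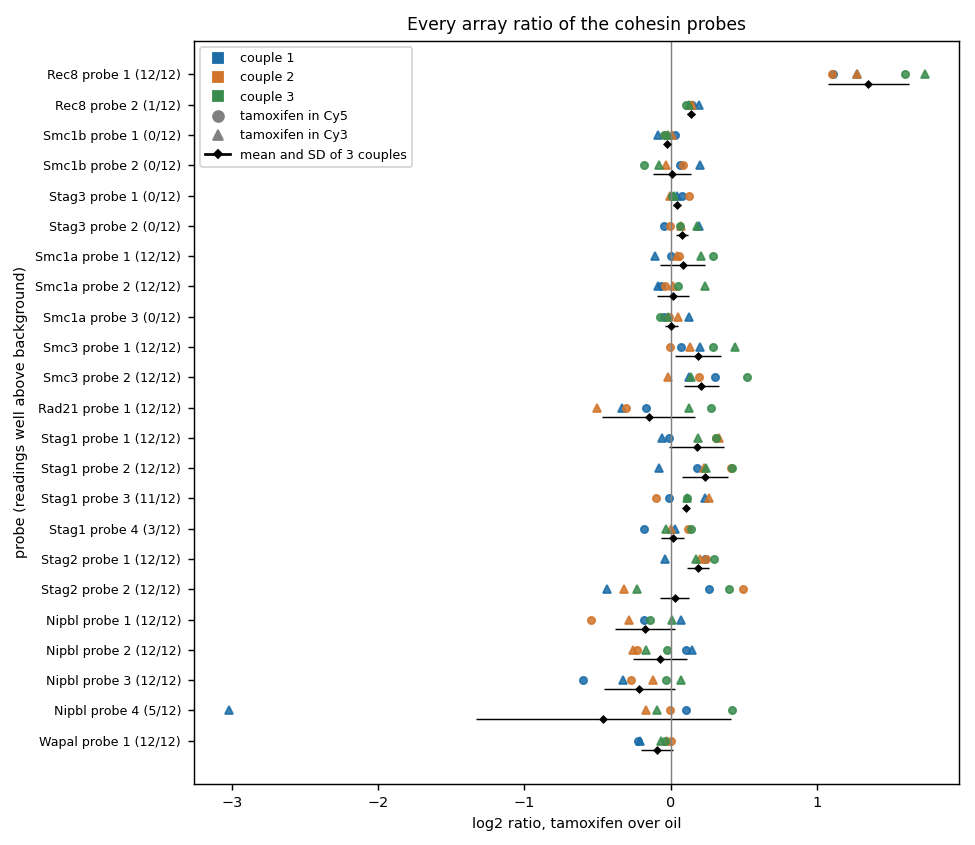
Log2 ratio of tamoxifen over oil (horizontal axis) of each of the 23 cohesin probes on each of the 6 arrays, coloured by couple and shaped by dye orientation, with the mean and SD of the 3 couples below each row of points. The brighter Rec8 probe stands to the right of every other probe, at 1.10 to 1.74, and the second Stag2 probe separates by dye orientation rather than by couple.

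The factors that load and release cohesin had means below 0, as did the subunit Rad21, with intervals that span 0. Nipbl, the loader, had a signal of 9.87, 9.68 and 9.89 in tamoxifen and 9.93, 10.10 and 9.95 in oil samples, so the groups did not overlap. Most of the gap came from couple 2: the couple ratios were -0.05, -0.42 and -0.07, which averages to -0.18 ± 0.21 (SD over 3 couples; limma, adjusted p = 0.74; interval -0.46 to 0.11). Its next probes, which are also well above background in all readings, gave -0.07 ± 0.19 and -0.21 ± 0.24 with groups that overlapped. The dimmest Nipbl probe, in 5 of 12 readings, had a single array at -3.02 in couple 1 and the other arrays between -0.17 and 0.42. Wapal, which opens the ring and takes cohesin off chromatin, was at 9.68, 9.88 and 9.81 in tamoxifen and 9.90, 9.89 and 9.86 in oil samples. Its couple ratios were -0.22, -0.01 and -0.05, and the mean was -0.09 ± 0.11 (adjusted p = 0.81; interval -0.32 to 0.13).

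Counted over the 7 tested partners, 2 (Smc3 and Stag2) were above 0 in all 3 couples and 2 (Nipbl and Wapal) below, where 13.9% of all genes were above and 16.4% below. On all 6 arrays 0 of the 7 kept 1 sign, against 6.05% of all genes above and 7.19% below 0. The groups did not overlap for Rec8, whose values chose the set, so nothing is read from the 5.22% of all genes apart on the higher side. Among the 7 partners they did not overlap for Nipbl, on the lower side with 7.13% of all genes. With so few partners, these counts do not set them apart from other genes.

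Other genes of the cohesin cycle came from a list of 13, of which 12 were tested, 7 above and 5 below 0, with a median of 0.05 and 0 past limma or at an unadjusted p under 0.05. Mau2, which forms the loader with Nipbl, was the lowest, at -0.44, -0.29 and -0.03 in couples 1, 2 and 3, averaging -0.25 ± 0.21 (SD over 3 couples; limma, adjusted p = 0.69), and below 0 on all 6 arrays. The ring's accessory subunits Pds5a and Pds5b averaged -0.12 ± 0.32 and -0.06 ± 0.07. Ctcf, the DNA-binding protein at which cohesin loops stop, was at -0.08 ± 0.08, and the deacetylase Hdac8, which recycles Smc3, at 0.11 ± 0.11. Of the acetyltransferases that lock the ring, Esco1 was at 0.05 ± 0.21 and Esco2, active in S phase, at 0.35 ± 0.38.

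The members of this list that work in mitosis spread widely between couples. Cdca5, or sororin, which protects cohesion after replication, was the highest, at 0.44 ± 0.62, with 0.01, 0.15 and 1.16 in couples 1, 2 and 3. Sgol1, or shugoshin, which guards centromeric cohesin, was at -0.55, 0.27 and 1.39, and its relative Sgol2 at -0.29, 0.28 and 0.26. Separase, encoded by Espl1, which cuts the kleisin at anaphase, was at -0.04, -0.62 and 0.37, and its inhibitor securin, encoded by Pttg1, at 0.13, 0.20 and -0.19. Cdca5, Sgol1 and Esco2 had their lowest value in couple 1 and their highest in couple 3, while Pttg1 did not.

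The related SMC complexes and the proliferation genes spread over the couples in the same order as the partners. The partners' medians were -0.05, 0.05 and 0.24 in couples 1, 2 and 3. Condensin and SMC5/6 genes, which compact chromosomes and resolve their links, had medians of -0.14, 0.18 and 0.38, from Ncaph at 0.56 ± 0.69 to Nsmce1 at -0.28 ± 0.07 (12 tested, 7 above and 5 below 0). In limma 0 of the 12 passed, and 1, Nsmce1, had an unadjusted p under 0.05, on the lower side with 4.01% of all genes. Proliferation genes had medians of -0.44, 0.23 and 0.95 (16 tested, all 16 with a mean above 0, 0 past limma), from Rrm2, a ribonucleotide reductase subunit, at 0.63 ± 0.72 to Mki67 at 0.01 ± 1.21. The median over all genes was -0.01, 0.00 and -0.01 (to 2 decimals) in these couples. This order was not particular to the lists above. Medians rose from couple 1 to couple 3 for endothelial markers too, at -0.16, 0.11 and 0.25. The same held for the cohesin cycle list, at -0.06, 0.10 and 0.16, and for the tested meiotic prophase genes, at 0.041, 0.043 and 0.112. Rec8 too was highest in couple 3, at 1.67, beside 1.20 and 1.19 in couples 1 and 2, and the part of proliferation in any value was not tested.

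**Figure D3:**
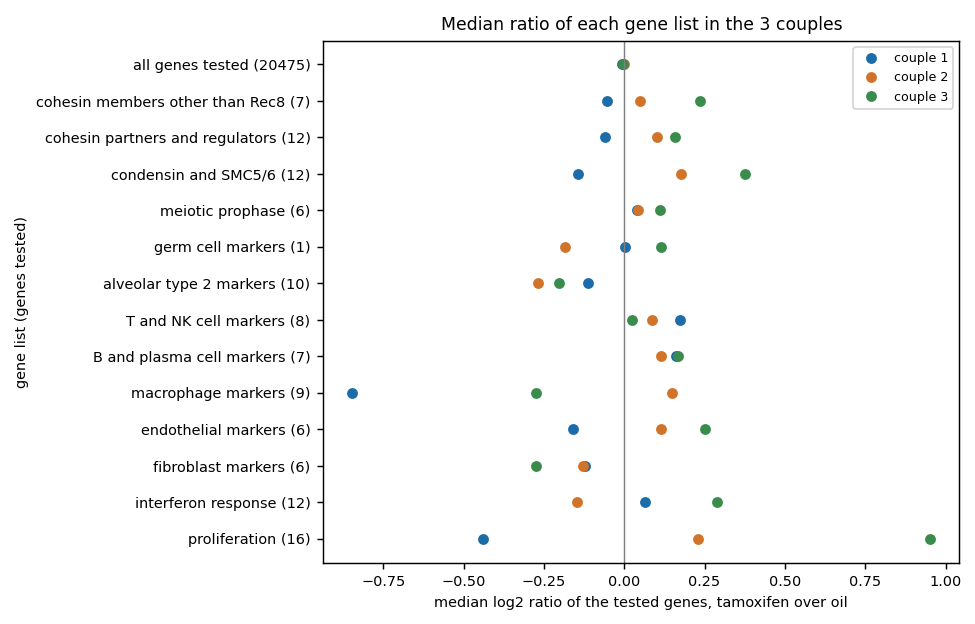
Median log2 ratio of tamoxifen over oil (horizontal axis) over the tested genes of each list, as a point for each of the 3 couples, with the number of genes tested in brackets. Cohesin partners run from -0.05 in couple 1 to 0.24 in couple 3, within the wider spread of proliferation genes from -0.44 to 0.95.

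Genes beside Rec8 on chromosome 14 had smaller ratios than Rec8, which was chosen for its high ratio, so nothing is read from that difference. Within 100 kb of the Rec8 probe, 17 other genes were tested, with means from -0.18 to 0.32 and a median of 0.10. Of the 17, 14 were above 0 and 3 below, where 9984 of all 20475 genes were above. In limma 0 passed, and 1 gene had an unadjusted p under 0.05, on the higher side with 3% of all genes. That gene was Pck2, a mitochondrial gluconeogenic enzyme, at 0.28 ± 0.16 (SD over 3 couples; limma, adjusted p = 0.69). The nearest probe, 0.5 kb away on the other strand, belongs to Ipo4, a nuclear import receptor, whose couples were at 0.63, 0.11 and 0.17 and averaged 0.30 ± 0.28. Fitm1, a lipid droplet protein, had the highest mean, 0.32 ± 0.55, from couples at 0.46, 0.78 and -0.30. Irf9, a subunit of the interferon-activated factor ISGF3, was at 0.09 ± 0.18, and the proteasome activator gene Psme1 at 0.22 ± 0.22. Of the 17, 7 were above 0 in all 3 couples and 0 below, where 13.9% of all genes were above and 16.4% below. On all 6 arrays 4 of the 17 were above 0, against 6.05% of all genes. Besides Pck2 and Ipo4 these were Mdp1, a phosphatase, at 0.09 ± 0.07 and Nedd8, a ubiquitin-like modifier, at 0.10 ± 0.03. The others named by their values were Rnf31 at 0.11 ± 0.16, Emc9 at 0.15 ± 0.16, Tm9sf1 at 0.13 ± 0.20, Gmpr2 at 0.10 ± 0.07, Rabggta at 0.10 ± 0.12, Tinf2 at 0.01 ± 0.03, Dcaf11 at 0.01 ± 0.06, Tgm1 at -0.03 ± 0.12 and Tssk4 at -0.04 ± 0.15. A transcript known by an identifier only, ENSMUST00000066106, was the lowest, at -0.18 ± 0.19.

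**Figure D4:**
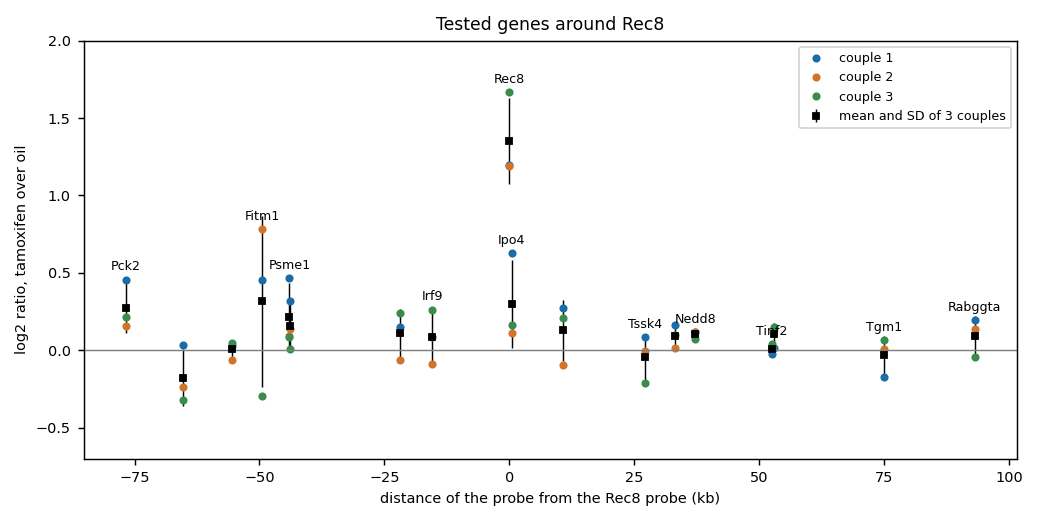
Log2 ratio of tamoxifen over oil (vertical axis) of the tested genes around Rec8 against the distance of their probe from the Rec8 probe in kb, as a point for each couple and the mean with its SD in black. Rec8 lies at 1.19 to 1.67, and the highest couple value among its neighbours is 0.78, for Fitm1.

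The genes whose level followed that of Rec8 most closely over the 6 samples were Gpr180, a transcript known as ENSMUST00000075321, Zfp275, Cnih1 and Mb21d2, with Pearson's r of 0.996, 0.995, 0.992, 0.991 and 0.991. Their ratios were smaller than that of Rec8: means of 0.23 ± 0.04, 0.20 ± 0.05, 0.27 ± 0.07, 0.15 ± 0.02 and 0.31 ± 0.01 in that order (SD, n = 3 couples). Each was higher in every couple, and in both groups couple 1 was the highest and couple 3 the lowest, as for Rec8. These genes were chosen by their likeness to Rec8 over the same samples. The shared direction and order therefore largely follow from the choice, and nothing is read from them. Of 20474 genes, 347 had an r above 0.9 with Rec8 and 312 an r below -0.9, and samples of a couple share arrays. Among the cohesin genes, Stag2 had the highest r with Rec8, 0.96, followed by Smc1a at 0.82 and Stag1 at 0.66, and Wapal the lowest, -0.61.

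Markers of other cell types and of the interferon response were read beside Rec8. T and NK cell markers had a median ratio of 0.15 (8 of 10 tested, 7 above 0; from Nkg7 at 0.22 ± 0.21 to Klrd1 at -0.12 ± 0.07), and their summed log2 signal was 11.51 to 11.79 in tamoxifen and 11.45 to 11.71 in oil samples. B and plasma cell markers had a median of 0.15 too (7 of 8 tested, 6 above 0; from Jchain at 0.23 ± 0.95 to Cd79b at -0.01 ± 0.32), with sums of 11.25 to 12.11 and 11.17 to 11.85. Interferon response genes had a median of 0.07 (12 of 12 tested, 7 above 0; from Ifit1 at 0.23 ± 0.14 to Oas1a at -0.12 ± 0.87), with sums of 13.39 to 13.69 and 13.36 to 13.77. Endothelial markers had a median of 0.11 (6 of 6 above 0; from Cldn5 at 0.32 ± 0.52 to Pecam1 at 0.01 ± 0.20) and sums of 12.34 to 12.52 and 12.04 to 12.41. The summed signals of these 4 lists overlapped between groups. Within couples 1, 2 and 3 the medians were above 0 throughout for T and NK cell markers, at 0.17, 0.09 and 0.02, and for B and plasma cell markers, at 0.16, 0.11 and 0.17. In these lists 0 genes passed limma or had an unadjusted p under 0.05.

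Other lists lay below 0. Alveolar type 2 markers, of the epithelial cell that makes surfactant, had a median of -0.24 (9 of 10 below 0, 4 of them at an unadjusted p under 0.05, against 4.01% of all genes on the lower side), from Napsa, an aspartic protease, at -0.86 ± 1.07 to Etv5 at 0.11 ± 0.40. Their summed log2 signal did not overlap, at 19.19 to 19.20 in tamoxifen and 19.44 to 19.51 in oil samples. The sum over all genes tested did not overlap either, at 25.966 to 26.028 in tamoxifen and 26.03 to 26.055 in oil samples. Fibroblast markers had a median of -0.21 (5 of 6 below 0, 1 at an unadjusted p under 0.05, against the same 4.01%), from Col1a2 at -0.32 ± 0.24 to Dcn at 0.38 ± 1.16, with sums of 13.76 to 14.52 and 14.01 to 14.63. Macrophage markers had a median of -0.24 (8 of 9 below 0), from Marco at -0.997 ± 2.70 to Siglecf at 0.02 ± 0.81, and sums of 15.82 to 17.88 and 16.58 to 17.44. In these 3 lists 0 genes passed limma over all genes. The part of cell makeup in the cohesin values was not tested.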

How the data were processed

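Tumor RNA of 3 tamoxifen and 3 oil samples, 50 ng each per the labels, was hybridised on 6 Agilent 2-colour mouse arrays. The deposited files hold spot intensity (mean foreground, median local background), flags, and a log10 ratio of Cy5 over Cy3 made by Agilent Feature Extraction 12.0.3.1 with its own dye normalization, per the file headers and the submitters' processing notes. The deposited series table holds log2 ratios of Cy5 over Cy3 (slope 3.32 on the log10 ratio, every array; column medians -0.15 to 0.14), so its scale, direction and centring are known. Positions are mm9.

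Background was corrected in limma 3.58.1 (R 4.3.3) by normexp, offset 50, then loess within arrays, with 3671 control and 276 to 391 outlier spots per array at weight 0 and removed; 0 spots were saturated. The probe with the highest mean signal stood for a gene. Genes were tested where 1 of the groups was well above background in 2 or more couples, on each of their arrays. Dye swaps were turned, averaged and counted as 1 replicate, and the 3 couples were tested against 0, two-sided, with lmFit and eBayes and Benjamini-Hochberg adjustment over all genes at 0.05. Errors are SD over couples. The number of arrays limits precision (median SE 0.098). Sample levels are loess plus Aquantile values per channel, averaged over a sample's 2 readings. Motifs were searched in RefSeq start regions; 7 of 10 members matched. The procedure was tested on simulated data whose shifts were larger than any mean ratio measured here, so small differences were not checked.

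Members, 12 gene lists and tests were chosen with earlier results of these data known. Named were all members, all tested genes of the cohesin cycle list, the highest and lowest of other lists, tested genes within 100 kb of the Rec8 probe, and the 5 likest Rec8 over samples. Alternatives, listed with their effect in the closing section, covered the ratio source, background, normalization, filter, probe choice, couples and pairing.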

Additional observations from a re-analysis of the deposited data

How the results depend on the processing

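The count of genes past limma's adjusted p was 0 under 13 of 15 alternatives. It was 9 with the 6 arrays in a fit with a dye term and the couple number as a random replicate block, and 1 with the channels taken apart as 3 against 3 samples and no replicate block. The count of cohesin genes past it, Rec8 not included, was 0 under all 15. In both groups, samples with the same number shared arrays. Their deviations from the group means correlated with r of 0.095, 0.16 and 0.16 (couples 1, 2 and 3). Each was the highest r for its number, narrowly in couple 1, as oil sample 1 had 0.088 with tamoxifen sample 2. The labels do not say that animals were paired. Of the 7 partners, 2 were above 0 in all couples, 4 with median centring, 3 with the mean over all probes of a gene, and 2 to 4 with a couple left out (4 without couple 1). Smc1a ranged from -0.001 to 0.15 with a couple left out, at -0.001 without couple 3; no other partner changed sign under the 15 alternatives. Leaving out 1 couple moved 5 others by over 1.5 times: Rad21, at -0.15, to -0.02 without couple 2 and -0.33 without couple 3, Nipbl, at -0.18, to -0.06 without couple 2, Wapal, at -0.09, to -0.03 without couple 1, Smc3, at 0.19, to 0.10 without couple 3, and Stag1, at 0.18, to 0.29 without couple 1 and 0.11 without couple 2. The Rec8 ratio ran from 0.75 to 1.43. The 0.75 is the mean of both Rec8 probes, 1 of them near background, and without couple 3 it was 1.19. No scaling moved the median of all genes beyond 0.02. All arrays were on 1 slide with 1 scan, so no batch was tested. Ratios of dim probes are pulled toward 0 by the offset, and levels near background carry no order.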
